A study of Caenorhabditis elegans with 2 samples.

Results

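Nuclear hormone receptors are transcription factors with a zinc-finger domain that binds DNA and, in most members, a second domain that binds small lipophilic molecules. Animals with smaller families use them to couple hormones and nutrients to gene expression, and Caenorhabditis elegans carries a greatly enlarged family, many of whose members descend from a duplicated HNF4-like receptor and are related to each other more closely than to any vertebrate receptor. The genes described here are the protein-coding genes of the Ensembl annotation of WBcel235 whose symbol is nhr followed by a number, with nhr-23 and nhr-85 left out. There are 267 of them among 19973 coding genes on the 6 nuclear chromosomes, and 167 of the 267 (62.5%) lie on chromosome V, which holds 25% of all coding genes. The other 100 lie on chromosome IV (33 genes), X (23), I (21), II (15) and III (8).

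Occupancy by RNA polymerase II had been measured by chromatin immunoprecipitation and sequencing (ChIP-seq) with an antibody against AMA-1, the largest subunit of the enzyme. Chromatin came from whole L3 larvae of the wild-type strain N2, with both sexes pooled, as 2 biological replicates of 1 group, with library fragments of 150 to 350 bp. There was no second condition, so the results are counts and shares without a test between groups, and signal from a tissue that is a small part of the animal cannot be told apart from weak signal in many cells. The optimal list held 3052 peaks in build ce11, and these were exactly the top 3052 of 30000 permissive regions from both replicates' reads combined, so that a rank in this pooled list is also a rank among optimal peaks. Peak signals are the authors' own values on an unstated scale and are compared only within a list. The read depth is unknown.

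A summit, the highest point of a peak, was assigned to the 5′ end of a gene when it lay within 500 bp of the outermost annotated 5′ end, to the 3′ end by the same distance, and to the body when it lay inside the gene and in neither window. By this rule 23 of the 267 nhr genes (8.61%, exact 95% interval 5.54 to 12.6%) had at least 1 optimal summit at any part, against 10.9% of all coding genes. At the 5′ end there were 13 (4.87%, 2.62 to 8.18%, against 6.07% of all coding genes), in the body also 13 (4.87%, 2.62 to 8.18%, against 2.60%), and at the 3′ end 8 (3%, 1.3 to 5.82%, against 5.81%). These intervals cover counting error only, and neighbouring genes can share a summit. The backgrounds at the 5′ end, the 3′ end and any part lay inside the intervals of the nhr genes, that at the 3′ end barely, and the background in the body lay just under the lower bound. No test of these differences was run. At 14 of the 23 genes a single part was occupied (the 5′ end alone at 6, the body alone at 5, the 3′ end alone at 3), at 7 genes 2 parts, and at nhr-17 and nhr-57 all 3.

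**Figure D1:**
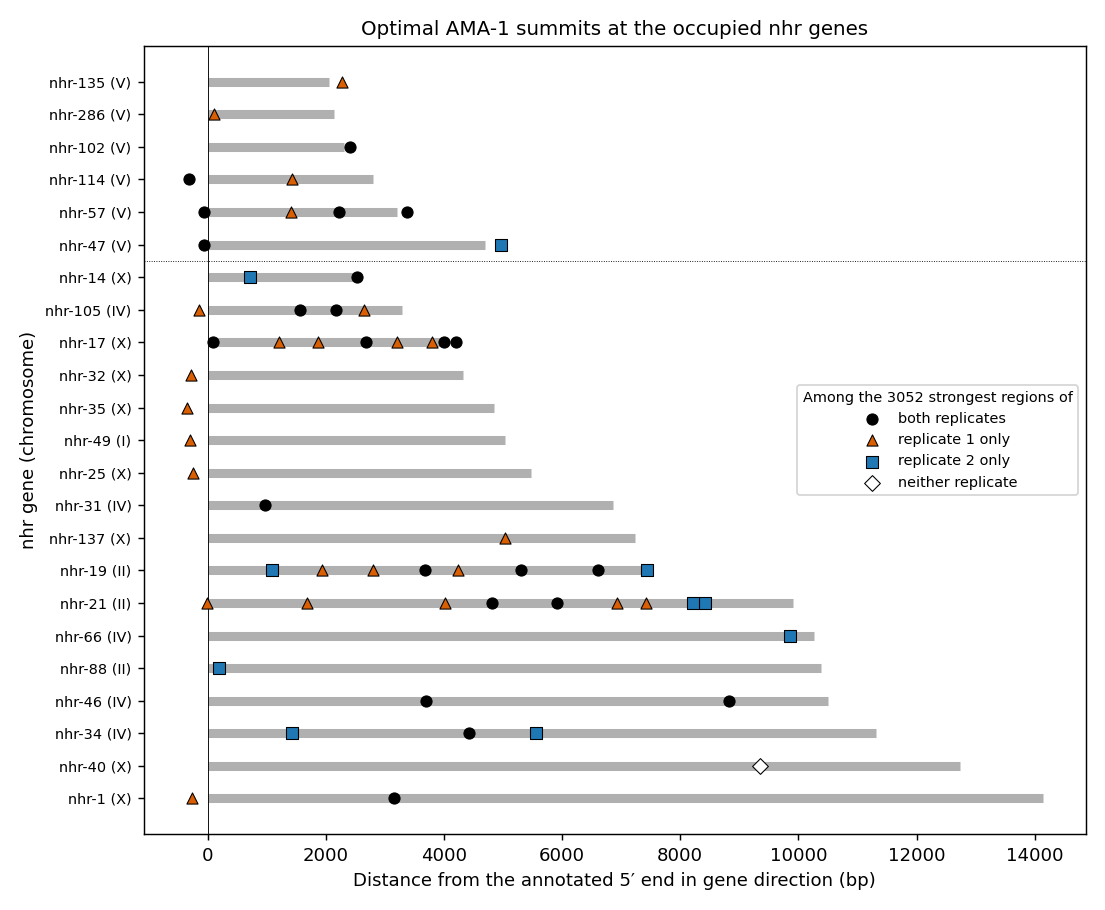
Optimal AMA-1 summits at the 23 occupied nhr genes, by distance in bp from the annotated 5′ end in gene direction; grey bars are the genes, with chromosome V above the dotted line and the other chromosomes below it, and symbols show which replicates held the region among their 3052 strongest. Summits crowd in nhr-17, nhr-19 and nhr-21, and 12 genes have 1 summit each.

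The 23 genes held 57 distinct summits, 10 of them on chromosome V. Of these, 25 belonged to nhr-21 (9), nhr-17 (8) and nhr-19 (8), while 12 genes had 1 summit each and 5 had 2. The pooled signal of the 57 ran from 58.2 to 316 with a median of 77.1, against a median of 79.2 over the whole optimal list, so nhr summits were of middling strength within it. A region lay within 200 bp in both permissive replicate lists for 52 of the 57, against 2806 of all 3052 optimal summits (91.9%). Among the 3052 strongest of both replicates were 23 of the 57 (40.4%), against 46.3% of all optimal summits.

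The sequences below show what lies under 4 of these summits, chosen to cover 3 occupied 5′ ends (nhr-25, nhr-114 and nhr-1) and the strongest summit of the family (nhr-17). Each runs 100 bases to either side of the summit on the gene's own strand, 5′ to 3′, from the RefSeq genome of WBcel235 (ce11). Capitals mark matches on either strand to the 4 motifs searched. These were AGGTCA, the core element bound by many nuclear receptors, then TGATAA, which many GATA factors recognise, then TATAAA, the letters of a TATA box, and the repeat GAGAGA. Matches may overlap, as those of the repeat do in the nhr-1 window.
nhr-25 5′ end, chrX:13008148-13008348, plus strand: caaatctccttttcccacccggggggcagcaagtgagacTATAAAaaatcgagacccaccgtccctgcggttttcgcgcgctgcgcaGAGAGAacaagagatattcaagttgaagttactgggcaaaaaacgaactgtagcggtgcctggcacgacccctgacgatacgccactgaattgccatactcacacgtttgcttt
nhr-114 5′ end, chrV:4186786-4186986, plus strand: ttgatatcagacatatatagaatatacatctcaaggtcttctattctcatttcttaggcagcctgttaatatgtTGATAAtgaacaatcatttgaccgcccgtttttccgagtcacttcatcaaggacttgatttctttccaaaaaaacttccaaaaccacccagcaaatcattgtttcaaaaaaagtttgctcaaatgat
nhr-1 5′ end, chrX:17513704-17513904, plus strand: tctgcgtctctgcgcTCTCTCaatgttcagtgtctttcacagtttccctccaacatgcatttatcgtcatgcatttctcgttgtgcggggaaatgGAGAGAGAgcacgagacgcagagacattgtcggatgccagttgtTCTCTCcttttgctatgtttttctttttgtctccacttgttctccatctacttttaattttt
nhr-17 exon, chrX:12664543-12664743, minus strand: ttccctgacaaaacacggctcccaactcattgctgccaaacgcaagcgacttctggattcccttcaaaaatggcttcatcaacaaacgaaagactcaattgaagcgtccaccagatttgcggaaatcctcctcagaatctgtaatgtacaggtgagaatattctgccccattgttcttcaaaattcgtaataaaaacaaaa

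Over all 57 nhr summits, windows of 201 bases held GAGAGA in 14 cases (24.6%, against 27.2% of all optimal summits), TGATAA in 9 (15.8%, against 14.2%), TATAAA in 5 (8.77%, against 11.9%) and AGGTCA in 3 (5.26%, against 5.70%). Mean GC content of these windows was 41.7% at nhr summits and 43.0% at all optimal summits. In the promoter window, taken as 250 bases before to 50 after the 5′ end, AGGTCA stood in 28 of 267 nhr genes (10.5%, against 8.27% of all coding genes) and GAGAGA in 83 (31.1%, against 21.8%). TGATAA stood in 80 nhr promoters (30.0%, against 30.2%) and TATAAA in 79 (29.6%, against 37.9%). Of the 13 nhr genes with an optimal summit at the 5′ end, 7 had GAGAGA in that window and 4 had each of the other motifs. A match is a run of letters and no evidence of binding.

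The gene nhr-25 encodes the worm relative of Drosophila FTZ-F1 and mammalian SF-1, needed for moulting and for the epidermis and vulva. Its only optimal summit, at 13008248 on chromosome X (gene 13008493 to 13013964, WBGene00003623), lay 245 bp upstream of the 5′ end and inside the noncoding genes F11C1.12 and F11C1.13. The pooled signal was 72.1 at rank 1872. In replicate 1 the region had a signal of 56.1 at rank 1660, and in replicate 2 a signal of 14.3 at rank 6923, so it was among the strongest 3052 regions of replicate 1 alone. Of the 7 listed receptors shared with insects or vertebrates, nhr-25 was the one with an optimal summit, beside 10.9% of all coding genes. The others were nhr-8, nhr-41, nhr-48, nhr-67, nhr-91 and nhr-6, the relatives of vertebrate receptors such as TLX (nhr-67), GCNF (nhr-91) and NR4A (nhr-6). In the permissive pooled list nhr-41 reached rank 3981 in its body and nhr-8 rank 4918 at the 5′ end. The best ranks were 9536 at nhr-48, 10766 at nhr-91, 15955 at nhr-67 and 25806 at nhr-6.

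HNF4-related receptors and their partners were occupied at 3 of the 8 genes listed, beside 10.9% of all coding genes with an optimal summit at any part. Among them is nhr-49, which controls fatty acid desaturation and breakdown and the response to fasting. Its optimal summit lay at 9869346 on chromosome I, 305 bp upstream of the 5′ end (gene 9869651 to 9874680, WBGene00003639), but closer, at 282 bp, to the 3′ end of the neighbour K10C3.5. Pooled signal was 78.8 at rank 1539, with rank 1002 in replicate 1 (signal 70.4) and 3552 in replicate 2 (signal 19.7). The nhr-49 body held no optimal summit; the best region there ranked 3405 in the pooled list, 3415 in replicate 1 and 1800 in replicate 2, each the best of its own list and not matched by position. The gene nhr-66, whose product works with NHR-49, had a summit at its 3′ end (pooled rank 2993, ranks 3097 and 2182 in replicates 1 and 2), 412 bp inside the gene and nearer to the 3′ end of serp-1.2, at 391 bp. At nhr-31, needed for growth of the excretory cell tubule, the summit at 8028545 on chromosome IV lay in an intron 968 bp inside the gene and within the noncoding gene C26B2.12. It ranked 1366 in the pooled list, 1507 in replicate 1 and 2499 in replicate 2. No optimal summit was found at nhr-80, nhr-13, nhr-64, nhr-69 or nhr-62. The 5′ end of nhr-64 had a pooled region at rank 3515, the closest to the optimal list among 5′ ends of the nhr genes with no optimal summit, and nhr-69 one at rank 6030. Best pooled ranks were 12826 at nhr-80 and 13085 at nhr-62, both in the body. The pooled list held no region at any part of nhr-13.

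Among 8 listed receptors of nutrient, xenobiotic and stress responses, nhr-57, nhr-114 and nhr-14 were occupied, again beside 10.9% of all coding genes. The gene nhr-57, which is induced by hypoxia through HIF-1, carried summits along its whole length on chromosome V (4131889 to 4135102, WBGene00003647). They stood 68 bp upstream of the 5′ end, 1411 and 2233 bp inside the gene, and 155 bp past the 3′ end, where the summit also lay 229 bp inside lgc-1. Pooled ranks in that order were 2254, 3003, 1997 and 1630. In replicate 1 the ranks were 2856, 2011, 1597 and 1743, and in replicate 2 they were 2341, none within 200 bp, 2392 and 1939. All but the second of the 4 summits of nhr-57 were thus among the strongest regions of both replicates.

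The gene nhr-114, which protects the germ line from harmful products of the diet, lies within the span of Y45G5AM.9 on chromosome V (4187202 to 4190008, WBGene00003704). A summit 316 bp upstream of its 5′ end had a pooled rank of 1830, with ranks 2495 in replicate 1 and 2208 in replicate 2. A summit in its body, in an exon 1424 bp inside the gene, stood 130 bp past the start of a shorter annotated transcript and ranked 2078 pooled, 2289 in replicate 1 and 3529 in replicate 2. At nhr-14, an HNF4-related regulator of intestinal iron uptake on chromosome X, the summit 72 bp past the 3′ end (pooled rank 1381, 1725 and 2720 in replicates 1 and 2) was stronger than that in an intron 726 bp inside the gene (pooled rank 2447, 5010 and 969). The 5′ end of nhr-14 had no optimal summit, although the best regions there ranked 2702 in replicate 1 and 2587 in replicate 2 (pooled rank 3282). The 2 receptors of the propionate shunt, nhr-68 and nhr-10, had no optimal summit, with best pooled ranks of 4090 and 11508. The remaining members of that list were nhr-8 (4918), nhr-86, an immune regulator (15796), and nhr-45, without a pooled region. Of the 6 listed receptors of development, nhr-25 and nhr-40 were occupied and nhr-67, nhr-2, nhr-6 and nhr-60 were not, beside the same 10.9%. Counts over lists as short as these, chosen with earlier results of these data known, describe only the genes named. The gene nhr-40 had an exonic summit 9352 bp inside the gene, whose regions ranked 2686 pooled, 3429 in replicate 1 and 12326 in replicate 2, among the strongest of neither replicate. Elsewhere in the nhr-40 body each replicate had a stronger region, at rank 2850 in replicate 1 and 1477 in replicate 2. No pooled region was found at nhr-2 or nhr-60.

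The strongest summits of the family belonged to genes for which no role is given here. Highest of all was a summit in an exon of nhr-17 on chromosome X (12663837 to 12667854, WBGene00003616), at 12664643 with a pooled signal of 316 at rank 52. Replicate 1 gave it a signal of 333 at rank 25, and replicate 2 had no region within 200 bp. The intronic summit at 12665172 ranked 67 in the pooled list, 43 in replicate 1 and 262 in replicate 2, and lay 56 bp from the transfer RNA gene WBGene00009555, of a class transcribed by RNA polymerase III, and 52 bp from the noncoding gene C02B4.8. Of the summits at the 3′ end of nhr-17, those at 12663853 and 12663652 ranked 97 and 60 in the pooled list and both matched the region of rank 200 in replicate 2. They lay 50 and 251 bp past the 5′ end of the neighbouring gene nlp-76 and inside it. The 5′ end of nhr-17 had a weaker summit, 86 bp inside the gene, which ranked 1348 pooled, 979 in replicate 1 and 2773 in replicate 2. The share that the transfer RNA gene and nlp-76 have in these signals was not tested.

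At nhr-21 on chromosome II (7339229 to 7349133, WBGene00003620, 8 annotated transcripts) 9 summits spread over the gene. Only that at the 5′ end, 16 bp upstream, lay outside it, with a pooled rank of 1470, rank 1083 in replicate 1 and rank 29356 in replicate 2. The strongest lay in an intron 203 bp upstream of an internal transcript start and ranked 382 pooled, 351 in replicate 1 and 474 in replicate 2. Its neighbour at 7344040 ranked 431, 592 and 494 in the same order. These were the 2 nhr-21 summits among the strongest of both replicates. Of the other 7, 5 were so in replicate 1 alone and those at 7347437 and 7347651 in replicate 2 alone. A similar spread was seen at nhr-19 on the same chromosome (9598180 to 9605526, WBGene00003618), with 7 summits in the body and another 99 bp past the 3′ end, where the summit also lay inside mrpl-53. The highest pooled rank there, 587, was replicate 1's (rank 366, against rank 22235 in replicate 2), while the summit at 9601843 ranked 707 pooled, 479 in replicate 1 and 1115 in replicate 2.

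On chromosome IV, nhr-105 (7050156 to 7053450, WBGene00003695) had a summit 149 bp upstream of its 5′ end, at rank 892 pooled, 413 in replicate 1 and 19203 in replicate 2. It was exceeded by a summit in an intron, 1559 bp inside the gene, at rank 424 pooled, 342 in replicate 1 and 2328 in replicate 2. The genes nhr-34 and nhr-46 on chromosome IV had 3 and 2 summits, all in the body, and both nhr-46 summits and the middle one of nhr-34 were among the strongest of both replicates. On chromosome X, nhr-1 had a summit 259 bp upstream of the 5′ end (ranks 1922 pooled, 1954 and 3915 in replicates 1 and 2) and one 3155 bp inside (2071, 1896 and 1685). The genes nhr-32 and nhr-35 had a summit at the 5′ end only, 275 and 348 bp upstream, with pooled ranks of 1418 and 2262. Replicate 2 had no region within 200 bp of the nhr-35 summit, but had one elsewhere in the same window, at rank 1048. Of the last 2, nhr-137 had an intronic summit (pooled rank 3025, rank 1861 in replicate 1, no region within 200 bp in replicate 2), and nhr-88 on chromosome II had one 191 bp inside its 5′ end that ranked 5294 in replicate 1 and 1116 in replicate 2.

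**Figure D2:**
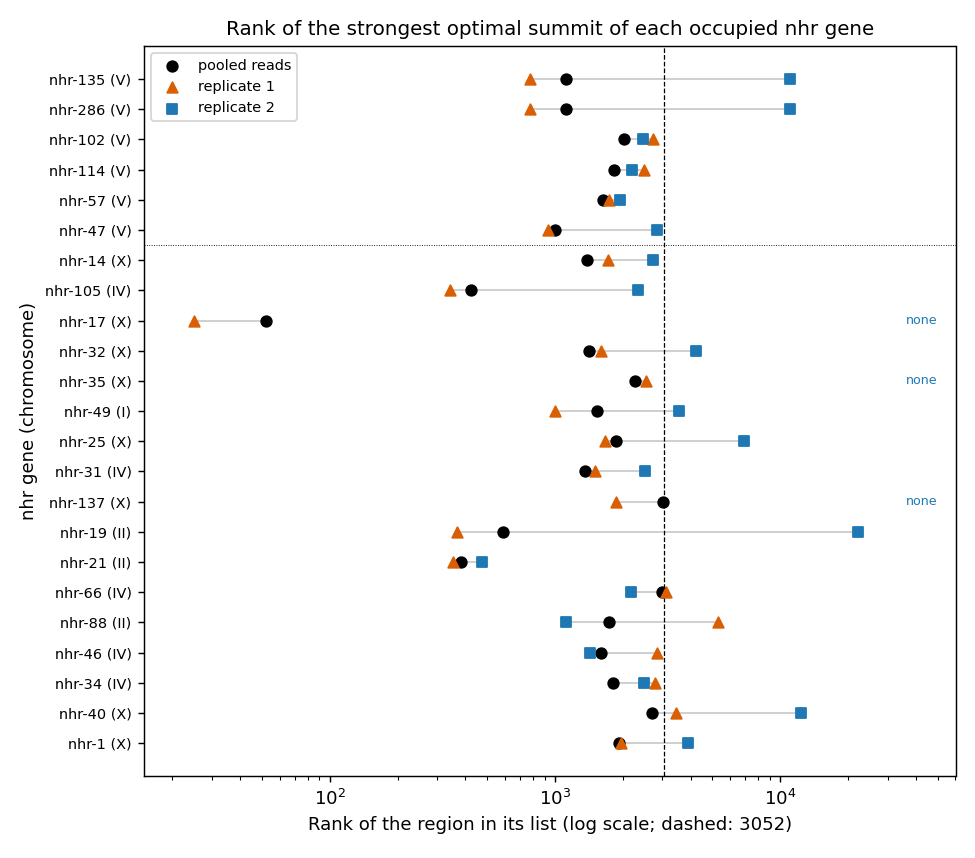
Rank of the strongest optimal summit of each occupied nhr gene in the pooled list, in replicate 1 and in replicate 2 (log scale, rank 1 is strongest), matched within 200 bp, with "none" where replicate 2 had no region and a dashed line at rank 3052; chromosome V is above the dotted line and the other chromosomes below it. Ranks in both replicates lie close together at nhr-57, nhr-102, nhr-114 and nhr-21 and far apart at nhr-19, nhr-135 and nhr-286.

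Each replicate was also taken alone with its 3052 strongest regions. At any part, 22 nhr genes (8.24%) were occupied in replicate 1 and 22 (8.24%) in replicate 2. The shares of all coding genes were 9.96% and 12.5%. By part, replicate 1 gave 13 at the 5′ end (4.87%), 13 in the body (4.87%) and 7 at the 3′ end (2.62%). All coding genes had shares of 5.48%, 2.72% and 5.19%. Replicate 2 gave 9, 13 and 12 in the same order (3.37%, 4.87% and 4.49%), against 6.10%, 2.93% and 7.08%. Of the 23 optimal genes, 21 were among those of replicate 1, without nhr-66 and nhr-88, and 18 among those of replicate 2, without nhr-25, nhr-32, nhr-135, nhr-137 and nhr-286. In both replicates alone 16 genes were occupied, all of them in the optimal list. That list ranks regions from both replicates' reads combined, so this overlap is partly built in. At the 5′ end, the stricter demand of a strong region at that part in both replicates was met by nhr-57, nhr-114, nhr-47, nhr-35, nhr-14 and nhr-17. The share of all coding genes that were strong in both replicates is not given here. Genes occupied in replicate 2 but not in the optimal list were nhr-64, nhr-68, nhr-69 and nhr-190, and in replicate 1 nhr-43.

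Summits at the 5′ ends of nhr genes lay between -348 and 191 bp from the annotated end, with a median of -149 bp, and 10 of 13 were upstream of it. Those at 3′ ends lay between -412 and 257 bp, with a median of 96 bp, and 7 of 10 were past the end of the gene. The summit shared by nhr-135 and nhr-286 is in both sets, and of these 23 pairs of a gene and a summit at its end, 4 had an end of another coding gene nearer to the summit. Within bodies there were 35 summits, 22 in introns and 13 in exons, and 5 of the 35 stood within 500 bp of an annotated internal transcript start.

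Chromosome V, with most of the family, held few of the occupied members. On V, 6 of 167 nhr genes had an optimal summit at any part (3.59%, 1.33 to 7.66%), against 17 of 100 on the other chromosomes (17%, 10.2 to 25.8%). All coding genes had shares of 7.49% on V and 12% on the other chromosomes, a narrower gap than that of the nhr genes; no test of the difference was run. At the 5′ end, counts were 4 of 167 on V (2.4%) and 9 of 100 elsewhere (9%), against 4.19% and 6.70% of all coding genes. In the body they were 2 (1.2%) and 11 (11%), against 1.62% and 2.92%. At the 3′ end they were 4 (2.4%) and 4 (4%), against 4.37% and 6.30%. Each replicate alone gave 6 genes on V (3.59%) and 16 on the other chromosomes (16%). The shares of all coding genes were 6.83% and 11% in replicate 1 and 8.37% and 13.9% in replicate 2.

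The 6 on V were nhr-47, nhr-57, nhr-102, nhr-114, nhr-135 and nhr-286. The last 2 are neighbours and were both counted through 1 summit, at 7091495, which lay 115 bp inside the 5′ end of nhr-286 and 219 bp past the 3′ end of nhr-135 and ranked 775 in replicate 1 but 11074 in replicate 2. The summit of nhr-102, 93 bp past its 3′ end, lay 74 bp from the small nucleolar RNA gene T06C12.16 and 230 bp from the 3′ end of str-56. At nhr-47 the summit 61 bp upstream of the 5′ end was also 335 bp from the 5′ end of the divergent dnj-19 and within the noncoding gene C24G6.10 (pooled rank 1001, 933 and 2849 in replicates 1 and 2). That at its 3′ end also lay inside hpo-15, 283 bp from that gene's 3′ end, with ranks 1617, 5042 and 609. The parts that these neighbours have in the signal were not tested.

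**Figure D3:**
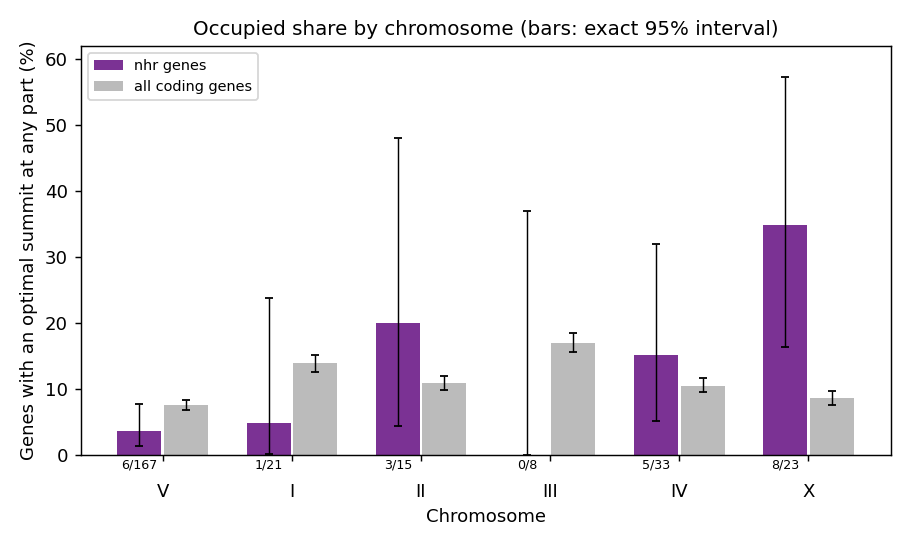
Share of genes with an optimal summit at any part, in %, for nhr genes (left bar, with the number occupied of the number on the chromosome) and all coding genes (right bar), with exact 95% intervals. The nhr genes of V (6 of 167) stand lowest of those with any occupied member, and those of X (8 of 23) highest.

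Among the other chromosomes, X had 8 of 23 nhr genes occupied (34.8%, 16.4 to 57.3%, against 8.57% of all coding genes on X), IV had 5 of 33 (15.2%, against 10.5%) and II had 3 of 15 (20.0%, against 10.9%). Chromosome I had 1 of 21, nhr-49 (4.76%, against 13.9%), and III had 0 of 8, which allows a share of up to 37.5% (against 17%). The order thus did not follow that of all coding genes, among which III was highest and V lowest. The interval for X is wide, with 23 nhr genes on that chromosome.

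Length and position of the genes moved with occupancy. The 23 occupied nhr genes had a median length of 5030 bp and the other 244 a median of 2226 bp, with 2302 bp over the family. Coding genes with an optimal summit had a median of 2390 bp, against 2027 bp for all coding genes. By the scoring rule a longer gene has more room for a body summit. The median was 2146 bp for nhr genes on V and 3036 bp on the other chromosomes. Under 2 kb, 0 of 93 nhr genes were occupied (which allows up to 3.23%, against 9.29% of all coding genes of that length). That background was 6.16% on V and 10.6% elsewhere. From 2 to 4 kb, 5 of 85 on V (5.88%) and 2 of 34 on the other chromosomes (5.88%) were occupied. All coding genes of that length had shares of 7.88% on V and 11.1% elsewhere. The 5 on V include nhr-135 and nhr-286, which were counted through the same summit. From 4 to 8 kb the counts were 1 of 16 on V and 8 of 28 elsewhere (6.25% and 28.6%, against 13.5%), and at 8 kb or more 0 of 1 and 7 of 10 (against 18.8%). In each class below 4 kb the nhr shares on V and elsewhere were thus equal in value, though their intervals are wide and their backgrounds differed. The gap between the nhr shares lay in genes of 4 kb or more, of which V had few. In the body alone, 4 of 119 nhr genes of 2 to 4 kb were occupied (3.36%, against 2.47% of all coding genes of that length). The counts were 4 of 44 from 4 to 8 kb (9.09%, against 5.39%) and 5 of 11 at 8 kb or more (45.5%, against 11.2%). The higher share of nhr genes in the body was thus widest among the few longest genes. What length itself contributes was not tested.

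**Figure D4:**
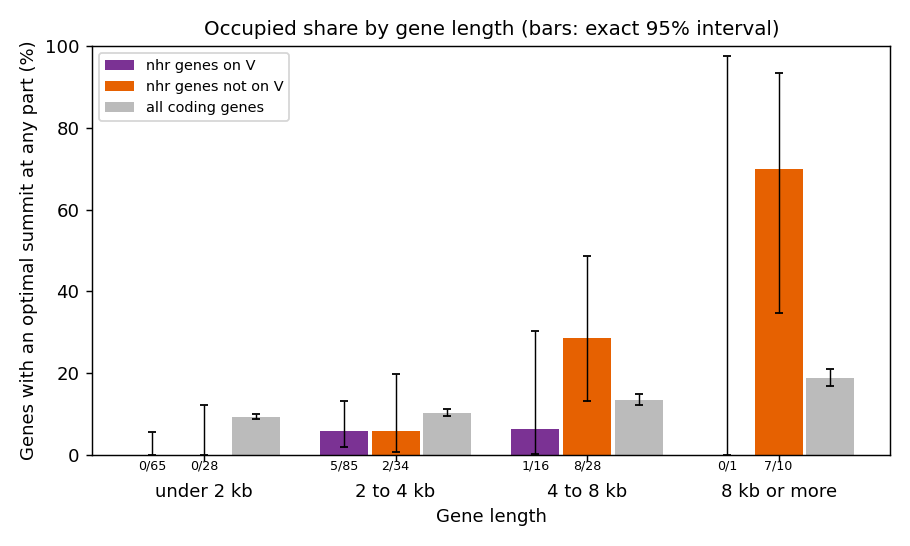
Share of genes with an optimal summit at any part, in %, by gene length, for nhr genes on V, nhr genes not on V and all coding genes, with exact 95% intervals and the number occupied of the number of nhr genes. Below 2 kb no nhr gene was occupied, and at 8 kb or more 7 of the 10 not on V were.

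Per length of gene body, nhr genes on V had 3 summits in 246 kb (1.22 per 100 kb) and the others 32 in 400 kb (8 per 100 kb), against 1.88 and 2.16 per 100 kb for all coding genes on V and elsewhere. Without nhr-17, nhr-19 and nhr-21, which held 19 of the 32, the others had 3.41 per 100 kb. In the arms of the chromosomes, taken as the outer parts that make up 50% of each, the occupied nhr genes were 3 of 111 on V (2.70%, against 3.84% of all coding genes in the arms of V) and 3 of 48 on the other chromosomes (6.25%, against 10.3%). In the centres they were 3 of 56 on V (5.36%, against 10.8%) and 14 of 52 elsewhere (26.9%, 15.6 to 41%, against 13.4%). Of the nhr genes on V, 111 of 167 (66.5%) lay in arms, against 48% of the others.

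Many nhr genes sit side by side. Next to another nhr gene stood 107 of 167 on V (64.1%) and 30 of 100 on the other chromosomes. Of these 137 genes 5 were occupied (3.65%, 1.20 to 8.31%), nhr-135 and nhr-286 among them through the same summit. Of the 130 that had no nhr neighbour 18 were occupied (13.8%, 8.42 to 21%), and of all coding genes 10.9%. On V the counts were 3 of 107 and 3 of 60 (against 7.49% of all coding genes), and elsewhere 2 of 30 and 15 of 70 (against 12%). Genes with an nhr neighbour lay mostly on V, and what the neighbour contributes was not tested. Genes with several annotated transcripts were occupied in 1 of 66 cases on V and 15 of 39 elsewhere (38.5%, 23.4 to 55.4%), which made 16 of 105 over the family (15.2%, against 16.9% of all coding genes with several transcripts). Those with 1 transcript were occupied in 5 of 101 cases on V and 2 of 61 elsewhere, or 7 of 162 over the family (4.32%, against 8.38%). Sequence repeated in the genome can hide a gene from aligned reads. A window at the 5′ end was called unique when at least 95% of its 31-base words were unique. Unique windows made up 87.4% on V and 78% on the other chromosomes, against 82.9% of all coding genes. Repeated 5′ windows were thus the less common on V. By occupancy, 22 of the 23 occupied nhr genes (95.7%) and 202 of the other 244 (82.8%) had a unique window. Among all coding genes with an optimal summit the share was 92.9%. What repeated sequence contributes was not tested.

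How the family appeared in weaker regions was read from the permissive pooled list. With all 30000 regions, 57 of 167 nhr genes on V (34.1%, 27 to 41.9%) and 56 of 100 on the other chromosomes (56.0%, 45.7 to 65.9%) had a summit at any part, against 32.1% and 51.1% of all coding genes. The 113 genes together were 42.3%, against 46.4% of all coding genes. There were 74 at the 5′ end (27.7%), 77 in the body (28.8%) and 70 at the 3′ end (26.2%), against 31.8%, 23.3% and 32.1%. With the 12208 strongest the shares were 10.2% on V and 39% elsewhere, against 19.4% and 32.5%, and 21% over the family, against 29.2%. With the 6104 strongest there were 10 nhr genes on V (5.99%) and 24 elsewhere (24%), against 12.3% and 20.5%. Over the family these made 34 genes (12.7%), against 18.5%. Of them 23 were at the 5′ end (8.61%), 25 in the body (9.36%) and 16 at the 3′ end (5.99%), against 10.9%, 5.36% and 10.1%. The 1526 strongest left 3 on V (1.8%) and 7 elsewhere (7%), against 4.21% and 6.69%. Those 10 genes were 3.75%, against 6.07%. Of them 6 were at the 5′ end (2.25%), 5 in the body (1.87%) and 3 at the 3′ end (1.12%), against 3.12%, 1.34% and 3.24%. With 1526, 6104 and 30000 regions, the share of nhr genes in the body was above that of all coding genes. The shares at both ends were below those of all coding genes. These sets are nested cuts of the same ranked list, so they are not separate observations. In the body the interval held the background with 1526 regions (0.611 to 4.32%). It lay above the background with 6104 (6.15 to 13.5%) and, barely, with 30000 (23.5 to 34.7%). On V the share of nhr genes was below the background of V with up to 12208 regions and slightly above it with all of them. No region in any of the pooled and replicate lists was found at 90 of the 167 on V (53.9%, 46.0 to 61.6%) and 40 of the 100 others, against 59.3% and 39.4% of all coding genes. The 19973 coding genes included 2178 with an optimal summit, 3686 with one among the 6104 strongest regions and 9265 with any pooled region. For nhr genes these counts were 23, 34 and 113. Of the 244 nhr genes without an optimal summit, 90 had a pooled region, and 11 had one among the 6104 strongest. The nearest to the optimal list at their 5′ end were nhr-64, nhr-42, nhr-43, nhr-68, nhr-5, nhr-8, nhr-69, nhr-71, nhr-119 and nhr-27, with pooled ranks from 3515 to 8817. Replicates differed over some of these: nhr-5 ranked 3868 in replicate 1 and 29532 in replicate 2, whereas nhr-68 ranked 5377 and 2678.

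**Figure D5:**
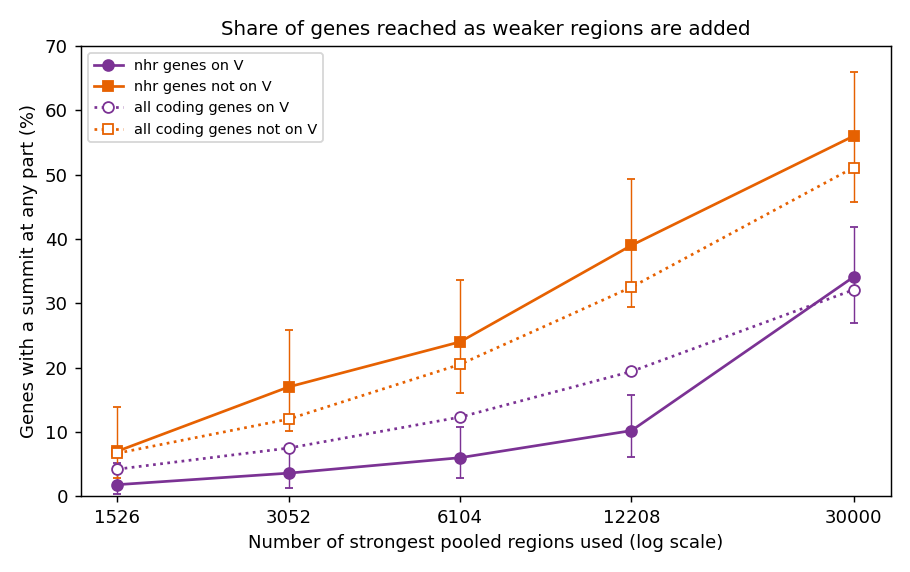
Share of genes with a summit at any part, in %, as more of the strongest pooled regions are used (log scale, from 1526 to 30000), for nhr genes on V and not on V (solid lines, exact 95% intervals) and all coding genes on V and not on V (dotted). The nhr genes on V stay below all coding genes on V up to 12208 regions and reach 34.1% against 32.1% with all of them.

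Other genes of nuclear receptor signalling were scored in the same way, and their counts are to be read beside the 10.9% of all coding genes with an optimal summit. Of the receptors without an nhr number, the dafachronic acid receptor gene daf-12 had an optimal summit in its body (pooled rank 2301, 1798 and 4339 in replicates 1 and 2), and unc-55, fax-1, sex-1 and odr-7 had none. The receptor genes set aside here, nhr-23 and nhr-85, both had a summit in the body (pooled ranks 1455 and 281), and nhr-85 also one at the 5′ end (2151). Of the coregulator genes, din-1, which encodes a corepressor of DAF-12, was occupied in the body and at the 3′ end (ranks 879 and 1607), while mdt-15 and cbp-1 were not. Among 5 genes of hormone synthesis only emb-8, a cytochrome P450 reductase gene, had a summit, at its 3′ end (rank 965), and daf-9, daf-36, dhs-16 and hsd-1 had none.

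Of 10 listed genes linked to the metabolic receptors, 6 were occupied at any part. Not every listed gene need be a direct target of these receptors. The acyl-CoA synthetase gene acs-2 and the glyoxylate cycle gene icl-1 were occupied at all 3 parts, with best pooled ranks of 116 and 25. Their ranks in replicates 1 and 2 at the 5′ end were 62 and 71 for acs-2 and 347 and 144 for icl-1. The desaturase gene fat-6 had summits at the 5′ end and in the body (1768 and 1882). Its best ranks at these parts were 1267 and 1638 in replicate 1 but 22388 and 9821 in replicate 2. The gene acdh-1, of the propionate shunt, had summits at both ends (1902 and 2636) with no region in the list of replicate 2. The genes hphd-1 and mmcm-1 had summits in the body and at the 3′ end, with best ranks of 440 and 508. In replicates 1 and 2 the best body ranks were 796 and 8189 for hphd-1 and 1101 and 1536 for mmcm-1. No optimal summit was found at fat-5, fat-7, fmo-2 or lbp-8. These lists are short and were named with knowledge of their function and of earlier results of these data. Their counts therefore describe the genes named and nothing wider.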

How the data were processed

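Each deposited ce11 list is a narrowPeak file; per the deposited file descriptions the authors called regions with a control alignment, per replicate and on pooled reads, and kept an optimal list by irreproducible discovery rate. Which aligner, caller and thresholds were used is not stated in the labels or files. The signal score of each deposited region is the authors' value and was used only to rank within a list. Deposited ce10 lists were not analysed here. Sequences are printed under few summits, and some are not reported here. Summits were assigned to gene ends (500 bp) and bodies of Ensembl release 115 genes (WBcel235, the same assembly as ce11; 0 regions passed a chromosome end). Replicate summits were matched within 200 bp, taking the strongest. Scoring was tested on simulated data. Shares carry exact Clopper-Pearson 95% intervals; limits for a count of 0 use 3 counts. Intervals cover counting error only, depth is unknown, and no test was run. The labels call the 2 replicates biological. Python 3.11.15 with pandas 2.3.3, numpy 2.4.6 and scipy 1.17.1 was used. All occupied members are named, with the 10 best-ranked unoccupied 5′ ends, members strong in both replicates, and the role lists; members and lists were chosen with earlier results of these data known.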

Additional observations from a re-analysis of the deposited data

How the results depend on the processing

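The values above were 13, 8 and 13 genes at the 5′ end, 3′ end and body, 23 at any part, and 6 on chromosome V against 17 elsewhere. A window of 250 bp left 8 genes at the 5′ end, and giving each summit to the gene it lies in or the nearest gene end left 4 at the 3′ end. The stronger 1526 optimal peaks left 6, 3 and 5 at the 5′ end, 3′ end and body, 10 at any part, and 3 on V against 7 elsewhere. With the 6104 strongest pooled regions there were 23, 16 and 25 at the parts, and 10 on V; with all pooled regions 74, 70 and 77, with 113 at any part, 57 on V and 56 elsewhere. Fewer or more regions make up these settings by construction. Only 7 members had no soft-masked base in the promoter window, which leaves that setting near void: 0, 0 and 1 at the parts, 1 at any part, 0 of 5 on V and 1 of 2 elsewhere. Leaving out each replicate in turn gave 9 to 13, 7 to 12 and 13 at the parts, 22 at any part, 6 on V and 16 elsewhere. Chosen after seeing the data, members shorter than 8 kb gave 8 in the body and 6 of 166 (3.61%) on V against 10 of 90 (11.1%) elsewhere. Members with a unique 5′ window gave 5 of 146 on V (3.42%) and 17 of 78 elsewhere (21.8%), and leaving out summits near noncoding genes 5 and 15. All coding genes were not scored under these filters, so the shares have no matching background. Wider windows, every transcript end and any overlap of a peak moved no count by more than 3 genes. No paired analysis was possible because there is 1 group. Unknown depth limits every absent call: a gene without a summit is one at which none was found.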
